A study of Mus musculus with 16 samples.

Results

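Maternal undernutrition during late gestation was examined in offspring that were later fed ad libitum. The arrays were assigned to the comparison by their labels: offspring on the diet labelled Ad Lib, with the mother's diet labelled Undernourished or Control, which gives 8 of the 16 arrays of the series. The comparison itself was chosen with earlier results of these data known. Mouse dams received 50% less food through the third week of gestation, a protocol that gives pups of low birth weight, and RNA was taken from the tibialis anterior, a mostly fast muscle at the front of the lower leg. In the undernourished AL group the dams were restricted and the offspring ate freely (AL, 4 arrays), and in the control AL group the dams were not restricted and the offspring also ate freely (4 arrays). Every array carries RNA pooled from 2 of the 8 mice in its group. The labels give neither strain, sex nor age, nor how mice were assigned to pools or whether littermates are among them. The diet was given to dams, so p-values over pools measure only the spread between these pools. The other 8 arrays come from calorie restricted (CR) offspring of the same 2 kinds of dam and are used here only to show where the AL offspring differ.

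Fetal growth in the last part of gestation coincides with the growth of muscle fibres, and poor maternal nutrition in that window is known in rodents for lasting effects on glucose handling and body composition. Skeletal muscle takes up most glucose after a meal through the insulin-regulated transporter GLUT4, burns fatty acids in its mitochondria, and breaks down its own protein through the ubiquitin-proteasome system and autophagy, both driven by FoxO transcription factors and glucocorticoids when food is scarce. The question the comparison addresses is which of these programmes differ in muscle of offspring that were undernourished before birth when they later eat freely.

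Signal is given throughout as log2 of the scanner's processed signal relative to the same array's 75th percentile, so that 0 is the level of the 75th percentile. A difference is undernourished AL minus control AL on this scale. That percentile lay between 388 and 589 on the AL arrays, and 66.4% to 74.0% of their spots were well above background. Replicates 1 and 2 of both groups were hybridised on one slide (slide 1) and replicates 3 and 4 on another (slide 2). All 16 skeletal muscle markers were well above background on every array, with a median between 8.53 and 8.85 on the AL arrays, as the label says.

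The AL arrays also carried transcripts of other tissues, in amounts that differed from array to array. The median of 42 brain markers was -0.80, -1.46, -1.72 and -2.69 on undernourished AL arrays 1 to 4, against 1.27, 0.85, -0.98 and -1.71 on control AL arrays 1 to 4, and between -5.58 and -5.14 on the CR arrays. Both control arrays of slide 1 stood highest, and the groups overlapped on the other arrays taken across slides. Within slide 2 both undernourished arrays (-1.72 and -2.69) lay below both control arrays (-0.98 and -1.71). Of 41 brain genes measured in the comparison 16 were lower on both slides and 0 higher (7.98% and 9.27% over all genes). The median of 23 skin markers was -4.46, -4.58, -3.11 and -4.69 in undernourished AL and -1.20, 0.07, -1.05 and -4.40 in control AL, so that control arrays 1 to 3 stood above all undernourished arrays and control array 4 among them. Undernourished array 3 alone had raised liver markers, with a median of -3.46 and 16 of 18 well above background. Of the brain markers, 31 to 41 were well above background in undernourished AL, 40 to 42 in control AL and 27 to 31 in the CR groups. In such bulk samples, fewer cells of a type and less RNA per cell cannot be told apart.

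**Figure D1:**
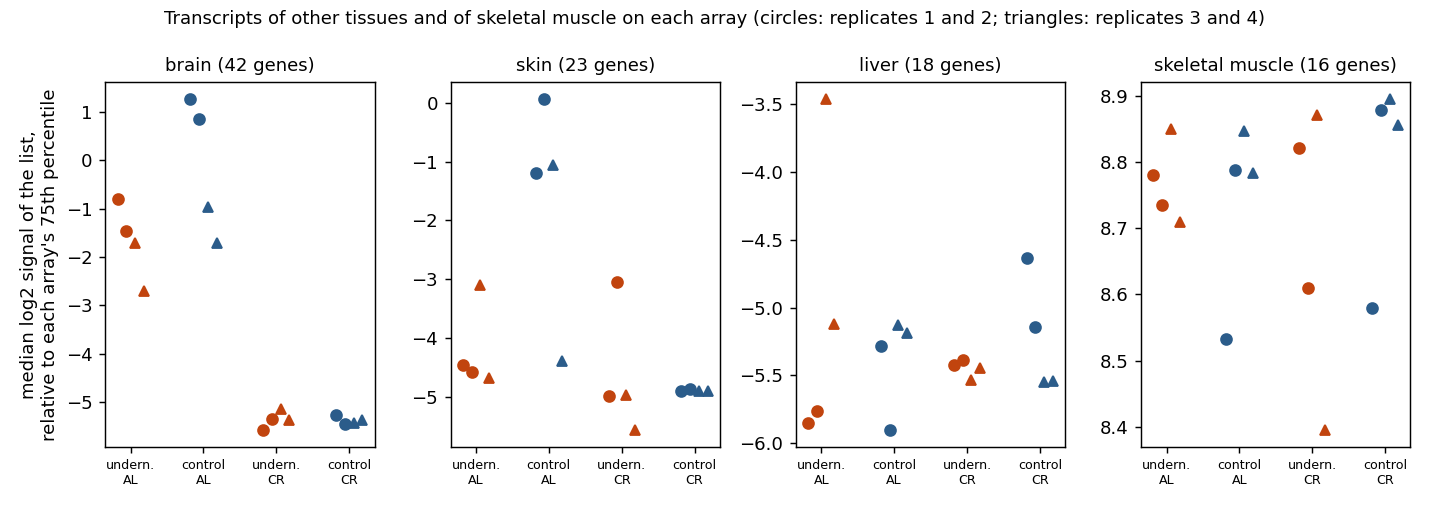
Median log2 signal of 42 brain, 23 skin, 18 liver and 16 skeletal muscle genes on each of the 16 arrays, relative to the array's 75th percentile, by group. Brain genes stood at 1.27 and 0.85 on the 2 control AL arrays of slide 1 and lower on every other array, while muscle genes stayed between 8.39 and 8.90; the vertical scale differs between panels.

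No gene passed the test between undernourished AL and control AL. Of 22079 genes, limma called 0 (0%) at an adjusted p under 0.05, the smallest adjusted p being 0.376. At an unadjusted p under 0.05 there were 2916 genes (13.2%), of which 1361 (6.16%) were higher and 1555 (7.04%) lower in undernourished AL. The 4 undernourished arrays all lay above the 4 control arrays for 732 genes (3.32%) and all below for 467 (2.12%). That split depended on the scaling, with 788 and 157 genes under normexp background correction and 587 and 564 with the percentile taken over detected probes. With slide as a block limma called 0 genes higher (0%) and 7 lower (0.0317%), and with all 16 arrays in the fit it called 2 higher. Without control AL replicate 4 it called 2 higher and 42 lower, and without any other 1 array it called 0. The precision of 4 pools a group was limited: the median standard error of a gene was 0.19 log2 units, and 17131 genes (77.6%) had a 95% interval that lay within 1 log2 unit of 0.

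The 2 slides gave different pictures. Between the slides themselves, limma called 406 genes higher (1.84%) and 890 lower (4.03%) on slide 2 than on slide 1. Within slide 1, limma called 255 genes higher (1.15%) and 1576 lower (7.14%) in undernourished AL, with 2 arrays a group and the spread pooled over both slides. Within slide 2 it called 1 gene (0.00453%), Krtap6-2, a keratin-associated protein of hair, which rose there by 3.28 log2 units (limma, adjusted p = 0.0228) and is named because it was the gene called. It stood at -2.04 and -1.95 on the undernourished arrays of slide 2, against -5.34 and -5.21 on its control arrays, and between -6.38 and -5.80 on slide 1. The 1576 genes lower on slide 1 had a median difference there of -1.80 and on slide 2 of -0.53, with the same sign for 1417, and the 255 higher genes had medians of 0.85 and 0.11, with the same sign for 178. Of the 41 measured brain genes 28 were among those lower on slide 1, as were 8 of 19 skin genes. Their medians were -2.34 and -3.26 on slide 1, against -0.87 and -0.95 on slide 2. No gene passed the test that its difference changed between slides (limma, 0 at an adjusted p under 0.05, 3133 at an unadjusted p under 0.05). Across genes, which are not independent, the differences on the 2 slides had a Pearson correlation of 0.47 and a Spearman correlation of 0.32.

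**Figure D2:**
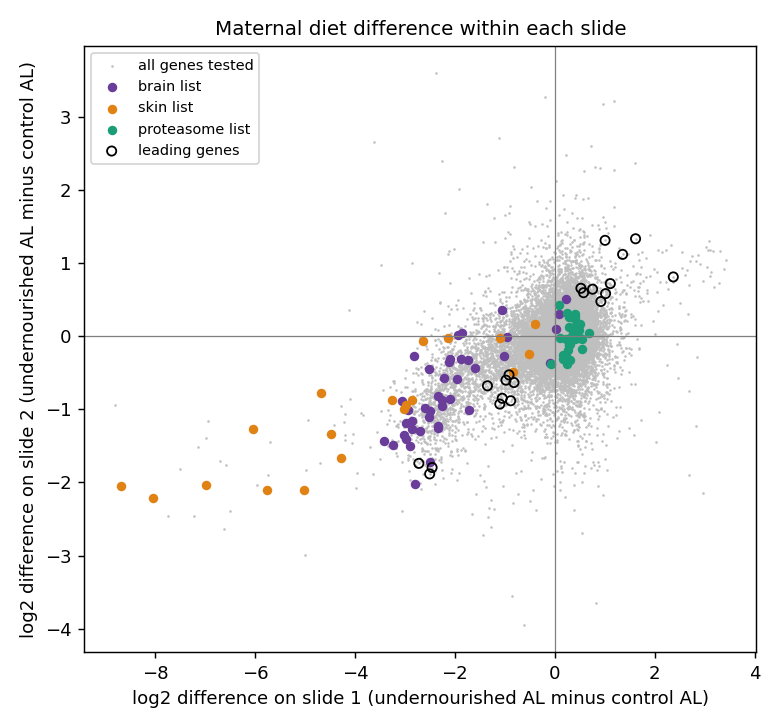
Each point is a gene, with its log2 difference between undernourished AL and control AL on slide 1 (horizontal) and slide 2 (vertical). Brain genes (median -2.34 on slide 1 and -0.87 on slide 2) and skin genes (-3.26 and -0.95) lie to the left and below 0, proteasome genes lie close to 0 (0.35 and -0.01), and the 20 leading genes, circled, lie away from 0 on both slides.

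The genes that separated the groups most evenly were named by the smallest p among symbol-bearing genes without overlap between the groups, so their separation follows from the choice. The 10 leading genes on the higher side differed by 0.59 to 1.59 log2 units, and all 10 were well above background on all 8 arrays. None passed the test (limma, adjusted p = 0.376 for each).

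Ptger4, a receptor for the inflammatory lipid prostaglandin E2, stood at -3.02, -2.41, -2.54 and -2.59 in undernourished AL against -4.23, -4.44, -3.58 and -4.23 in control AL. All 4 undernourished pools lay above every control pool. The difference was 1.48 ± 0.22 (SE), 1.62 on slide 1 and 1.34 on slide 2. It was 1 of the 2 genes called with all 16 arrays in the fit (adjusted p = 0.0450). The other, known only by the identifier AK086129 and named because it was called, stood at -0.91, -1.01, -1.29 and -1.0 in undernourished AL against -2.32, -2.26, -1.89 and -2.22 in control AL.

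A pair of transcription factors that pattern the embryo were on this side. Pitx1, which gives the hindlimb its identity, stood at -0.40, -0.58, -1.28 and -1.07 in undernourished AL and at -2.62, -3.10, -1.87 and -2.12 in control AL. The difference was 1.59 ± 0.30 and was larger on slide 1 (2.37) than on slide 2 (0.81). Hlx, a homeobox factor of gut and blood cell development, stood at -2.66, -2.36, -2.02 and -1.78 in undernourished AL against -3.78, -3.26, -3.11 and -3.32 in control AL. For Hlx the differences on the slides were 1.01 and 1.32, with 1.16 ± 0.22 over both.

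Among the enzymes and signalling genes, Gulo, which makes the last step of vitamin C synthesis in mice, stood at -3.28, -3.45, -3.21 and -3.42 in undernourished AL and at -4.36, -4.59, -4.15 and -3.93 in control AL (0.92 ± 0.16). Net1, an exchange factor that activates the GTPase RhoA, stood at -0.32, 0.32, 0.60 and 0.14 in undernourished AL and at -1.71, -1.01, -0.67 and -0.83 in control AL (1.24 ± 0.27). Gigyf1 encodes a partner of Grb10, an adaptor bound to insulin and IGF1 receptors. It stood at 0.08 to 0.51 in undernourished AL and at -0.51 to -0.18 in control AL, a difference of 0.70 ± 0.15, and its 2 further probes had the same sign.

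A pair of innate immune genes and a splicing factor followed. Nod2, an intracellular sensor of bacterial cell walls, stood at -2.91 to -2.51 in undernourished AL and at -3.63 to -3.26 in control AL (0.70 ± 0.14). Mr1, which presents microbial metabolites to invariant T cells, stood at -0.30 to 0.02 in undernourished AL and at -0.83 to -0.64 in control AL (0.59 ± 0.12), nearly the same on slide 1 (0.58) and slide 2 (0.60). Srsf5, a splicing factor, stood at 2.58 to 2.83 in undernourished AL and 1.48 to 2.24 in control AL (0.80 ± 0.18). The last of the 10, the sialyltransferase St6galnac2, differed by 0.59 ± 0.13.

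Leading genes on the lower side were dimmer. Only 5 of the 10 were well above background on all 8 arrays, and the 10 differed by -2.23 to -0.72 log2 units (limma, adjusted p = 0.376 for each). Ccl12, a chemokine that attracts monocytes, stood at -5.40, -5.18, -5.41 and -5.33 in undernourished AL, where 1 of 4 arrays was well above background. In control AL it stood at -4.03, -4.36, -4.44 and -4.44, well above background on all 4. The groups were far apart relative to the spread within each, with a difference of -1.01 ± 0.14, but the probe lay near the detection limit.

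Of the lower genes, 3 are genes of the epidermis. Cdsn, corneodesmosin, stood at -5.70, -5.11, -5.16 and -5.55 in undernourished AL and at -3.23, -2.14, -2.89 and -4.34 in control AL (-2.23 ± 0.41), with 2 of the 4 undernourished arrays well above background. Gjb5, a connexin of epidermis, was not well above background on any undernourished array and at least 3.0-fold lower in undernourished AL than in control AL, where its 4 arrays ranged from -4.97 to -2.89. Kdf1, a keratinocyte differentiation factor, was likewise not well above background on any undernourished array and at least 1.60-fold lower. Such a bound sets the bright group's mean against the lowest signal still well above background on the dim group's arrays. It carries no error and holds for the main fit only. Under normexp background correction Gjb5 differed by -0.27 and Kdf1 by -0.03. In the authors' log2 values they differed by -0.74 and -0.41. In control AL the 3 genes were lowest on array 4, the control array with the lowest skin marker median (-4.40). Leaving out the 4 AL arrays that had more skin or liver RNA leaves 1 control array. There Cdsn differed by -1.11, Gjb5 by -1.16 and Kdf1 by -1.25, against -2.23, -2.19 and -2.12 in the main fit. What part of these differences came from skin RNA was not tested.

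Other lower genes act inside cells. Gcnt1, a glycosyltransferase that branches O-linked sugars, stood at -4.12, -3.61, -3.78 and -3.77 in undernourished AL against -2.72, -2.91, -3.03 and -2.82 in control AL (-0.95 ± 0.15). Prim2, the large subunit of DNA primase, stood at -2.94, -3.18, -3.01 and -3.28 in undernourished AL against -2.38, -1.98, -2.57 and -1.96 in control AL, a difference of -0.88 on each slide. Both were well above background on all 8 arrays and separated the groups on each slide. Spred2, an inhibitor of Ras-ERK signalling, was not well above background on any undernourished array and differed by -0.79 ± 0.15. With normexp background correction, which adds an offset and so compresses dim probes, the 10 lower genes ranged from -0.56 to 0.04 and Spred2 turned to 0.04. The 10 higher genes ranged from 0.28 to 1.17 under that setting.

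**Figure D3:**
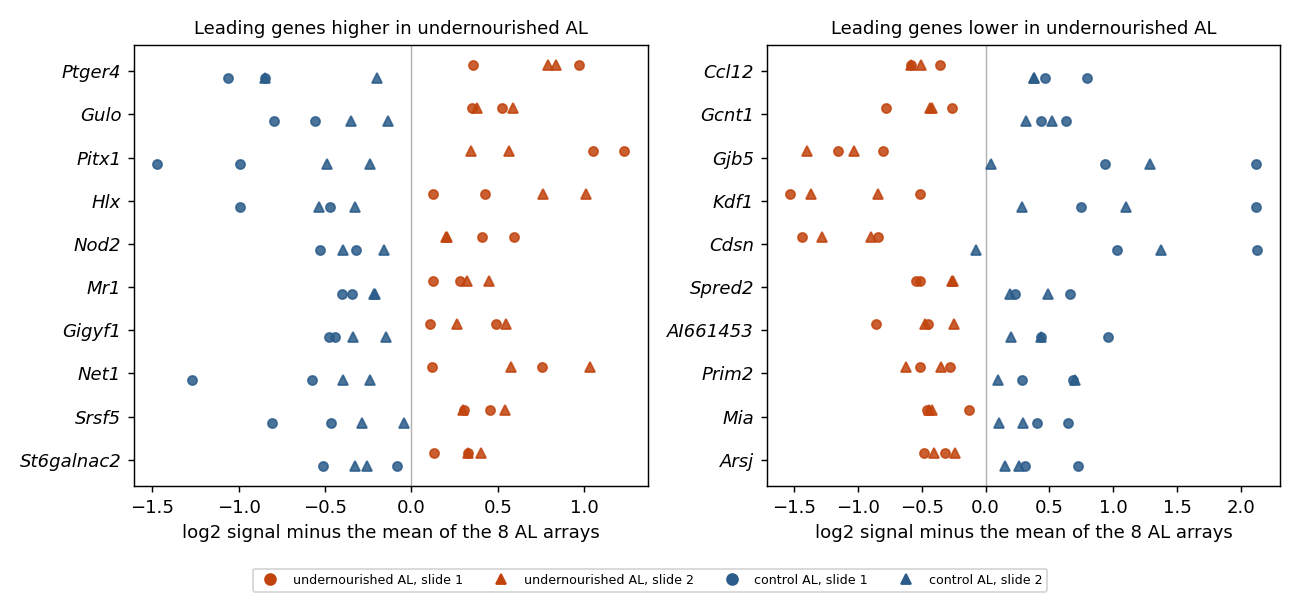
Log2 signal of the 10 leading genes higher and the 10 leading genes lower in undernourished AL on each array, minus the gene's mean over the 8 AL arrays. Circles are slide 1 and triangles slide 2; the groups do not overlap for any of the 20, by choice, and the higher genes differ by 0.59 to 1.59.

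The slide held both groups, so genes were also ranked with slide as a block, among genes in no list of another tissue whose groups do not overlap on either slide. In all, 2047 genes (9.27%) lay higher and 1761 (7.98%) lower in undernourished AL on both slides. Of the genes so named on the higher side, Ptger4, Hlx, Gulo and Net1 also lead without the block. Also named were Vsig10, an immunoglobulin superfamily protein (0.69 ± 0.17), Znrf2, a ubiquitin ligase (0.71 ± 0.19), and Avil, an actin-binding protein of sensory neurons (1.30 ± 0.35). For Avil the values were -2.06, -1.82, -1.09 and -0.56 in undernourished AL and -3.31, -2.52, -2.59 and -2.31 in control AL. None of these 3 passed with the block (limma, adjusted p = 0.0696 for each).

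On the lower side 8 genes were named with the block, among them Ccl12, described above. Gpr26, an orphan receptor of brain, stood at -4.67, -4.59, -6.39 and -6.92 in undernourished AL and at -1.91, -2.32, -4.80 and -4.94 in control AL. Each undernourished pair lay below the control pair of its slide, by 2.51 and 1.79 log2 units, and the signal of slide 2 was lower than that of slide 1 in both groups. Gpr26 fell with slide as a block (limma, -2.15, adjusted p = 0.0442) and so did Srrm3, a splicing factor of neurons, by 1.69, and Trim12a, a member of the TRIM protein family, by 2.44 (adjusted p = 0.0442 for each). With arrays paired by replicate number in place of the slide block these 3 genes did not pass (limma, adjusted p = 0.0678 for each).

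The other genes called with the block were the identifiers XM_139463, NAP043091-1, AK046230 and AK084765, which have no symbol in the table used and are named because they were called. Sox2, a factor of neural stem cells, Ephb1, an axon guidance receptor, Plxna3, a semaphorin receptor, and Rspo2, a secreted activator of Wnt signalling, stood lower on both slides without passing. Brain markers were lower on the same arrays. With the median brain signal of each array as a covariate, Gpr26 differed by -0.39, Sox2 by -0.30, Srrm3 by -0.64, Trim12a by -1.09 and Rspo2 by -0.94. Under the same covariate Ptger4 differed by 1.27, Pitx1 by 1.36, Hlx by 0.85, Gcnt1 by -0.96 and Prim2 by -0.84. That covariate was added after the data had been seen, and the 3 genes called with the block did not pass with it.

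Genes of muscle fibres differed little. Over all genes the median difference was 0.07, with 0.18 on slide 1 and -0.04 on slide 2, and 13326 genes were higher and 8753 lower, against which list medians and counts are read. The 17 fast glycolytic fibre genes had a median of 0.12 and the 15 slow oxidative ones -0.01. In either list 0 members separated the groups, where 3.32% of all genes were higher and 2.12% lower. For lists of this size 0 lies near those shares. Myh4, the fast myosin of this muscle, stood at 10.24, 10.16, 10.19 and 10.37 in undernourished AL and at 9.93, 10.37, 10.04 and 10.15 in control AL, and its interval ran from -0.18 to 0.43. Acta1, skeletal actin, and Ckm, muscle creatine kinase, had intervals of -0.18 to 0.58 and -0.48 to 0.11. Myh7, the slow myosin, stood at 7.23, 5.11, 7.70 and 7.65 in undernourished AL and at 7.55, 5.89, 7.53 and 7.52 in control AL, so that replicate 2 was low in both groups. The 21 calcium handling genes had a median of 0.06. Of these, 2 separated the groups on the higher side and 0 on the lower (3.32% and 2.12% over all genes). Ryr1, the calcium release channel, was 1 of those 2 (0.44 ± 0.15), at 7.95 to 8.11 in undernourished AL and 7.21 to 7.76 in control AL.

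Genes of protein breakdown stood on the higher side. Of 25 measured muscle atrophy and FoxO target genes 21 were higher and 4 lower, with a median of 0.33, 0.26 on slide 1 and 0.40 on slide 2. Fbxo32, the ubiquitin ligase atrogin-1, stood at 7.44, 7.68, 8.09 and 7.94 in undernourished AL and at 7.15, 6.91, 7.84 and 7.06 in control AL. The undernourished pair lay above the control pair on each slide, and the difference was 0.55 ± 0.23 (limma, unadjusted p = 0.0453, adjusted p = 0.376). Trim63, the ligase MuRF1, differed by 0.53 ± 0.34 and overlapped between groups, and Fbxo30, a ligase induced by loss of BMP signalling, by 0.72 ± 0.24. Of 37 proteasome genes 12 were higher on both slides and 0 lower (9.27% and 7.98% over all genes), and 4 separated all 8 arrays on the higher side (3.32% over all genes). Psma3, Psma5, Psmc1 and Psme4, subunits of the core, the regulatory cap and an activator, were those 4, chosen here after their values were seen, with differences of 0.36, 0.27, 0.27 and 0.32. The proteasome median was 0.35 on slide 1 and -0.01 on slide 2, however. Of 25 autophagy genes 7 were higher on both slides and 0 lower (9.27% and 7.98% over all genes), led by Becn1, a core component of autophagosome nucleation (0.38 ± 0.13).

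The list medians with the largest values were those of stress-responsive genes. Immediate early genes, which nerve activity, exercise and handling induce within minutes, had a median of 0.39 over 23 measured members, of which 21 were higher. Ier2 stood at 0.97, 1.11, 0.95 and 1.15 in undernourished AL and at 0.27, 0.35, 0.48 and 0.86 in control AL (0.56 ± 0.15). Targets of the glucocorticoid receptor had a median of 0.38 over 16 members, with 12 higher. Errfi1, an inhibitor of EGF receptor signalling, stood at 3.21, 3.80, 3.73 and 3.55 in undernourished AL and at 2.58, 2.83, 2.98 and 3.19 in control AL (0.68 ± 0.18). Of 20 clock genes 15 were higher, with a median of 0.13. Bhlhe40, a clock repressor that stress also induces, differed by 0.67 ± 0.17, 0.56 on slide 1 and 0.78 on slide 2. The receptor itself, Nr3c1, had an interval of -0.41 to 0.33, and Hsd11b1, which regenerates active glucocorticoid in tissue, -0.69 to 0.12. Without control AL replicates 1 and 2, the arrays with the most brain RNA, the medians were 0.04 for atrophy genes, 0.06 for glucocorticoid targets and 0.27 for immediate early genes. With the median brain signal of each array as a covariate they were -0.13, -0.11 and 0.14, and those of proteasome and autophagy genes 0.01 and 0.07, so the first 2 changed sign. With that covariate Fbxo32 differed by 0.32 and Trim63 by 0.05. Leaving out the 4 AL arrays that had more skin or liver RNA leaves 1 control array. There the medians were -0.08 for atrophy genes, -0.23 for glucocorticoid targets and -0.11 for immediate early genes.

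Of 32 measured insulin and IGF signalling genes 20 were higher and 12 lower (median 0.17). On both slides 4 were higher and 0 lower (9.27% and 7.98% over all genes), and 0 separated all 8 arrays, where 3.32% of all genes were higher and 2.12% lower. The list's median was -0.02 with the median brain signal as a covariate. Igf2r, the receptor that clears IGF2, stood at 3.30, 3.22, 3.21 and 3.12 in undernourished AL and at 2.19, 2.30, 2.78 and 3.13 in control AL. Its difference was 1.02 on slide 1 and 0.21 on slide 2, and over both slides 0.61, or 0.29 with that covariate. Slc2a4, which encodes GLUT4, stood at 7.63, 7.41, 7.63 and 7.5 in undernourished AL and at 7.11, 7.12, 7.49 and 7.74 in control AL, with an interval of -0.21 to 0.56. For the insulin receptor gene Insr the interval was -0.15 to 0.75, for its substrate Irs1 -0.20 to 0.70, and for Igf1 -0.54 to 0.32. In glucose metabolism, 1 of 27 genes separated the groups on the higher side and 0 on the lower (3.32% and 2.12% over all genes). It was Phka1, a subunit of the kinase that activates glycogen breakdown (0.70 ± 0.22). Phka1 stood at 1.63 to 2.43 in undernourished AL and 0.85 to 1.63 in control AL.

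Respiratory complex and mitochondrial ribosome genes stood on opposite sides of 0 on the 2 slides. The median of 36 complex I genes was 0.37 on slide 1 and -0.15 on slide 2, and that of 76 mitochondrial ribosome genes was 0.39 and -0.15. The 27 tricarboxylic acid cycle and pyruvate dehydrogenase genes had medians of 0.35 and 0.02, both above 0. Pdha1, a catalytic subunit of pyruvate dehydrogenase, was similar on both slides (0.47 and 0.46), and its difference was 0.14 with the median brain signal as a covariate. Cs, citrate synthase, stood at 8.21 to 8.43 in undernourished AL and at 7.86 to 8.27 in control AL (0.24 ± 0.13). Ppargc1a, the coactivator that drives mitochondrial biogenesis, stood at 2.56, 2.59, 5.20 and 4.03 in undernourished AL and at 2.43, 3.29, 2.43 and 4.61 in control AL. The pools of both groups spanned more than 2 log2 units, and its interval ran from -1.16 to 1.97.

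Among fuel genes, Pdk4, the kinase that shuts pyruvate dehydrogenase off in fasting, stood at 8.53, 8.63, 8.57 and 9.04 in undernourished AL and at 8.05, 8.19, 8.54 and 8.45 in control AL. The difference was 0.39 ± 0.17 (limma, unadjusted p = 0.0486, adjusted p = 0.376). Ucp3, an uncoupling protein induced by fatty acids, and Cpt1b, the gate of fatty acid entry into mitochondria, differed by 0.48 ± 0.23 and 0.29 ± 0.16. On the synthetic side, Fasn, fatty acid synthase, and Scd1, a desaturase, differed by -0.50 ± 0.32 and -0.34 ± 0.34. With the median brain signal of each array as a covariate Pdk4 differed by 0.12, Ucp3 by 0.21 and Cpt1b by 0.04, while Fasn and Scd1 turned to 0.09 and 0.18. Cholesterol synthesis and uptake genes had a median of -0.27 over 23 members, 8 of them lower on both slides and 1 higher (7.98% and 9.27% over all genes), and 4 were among those called lower on slide 1 (7.14% over all genes). Sqle, squalene epoxidase, chosen here after its values were seen, fell by 2.20 log2 units on slide 1 (limma, adjusted p = 0.0107). On slide 2 it differed by -0.54. Brain markers were lower on the same undernourished arrays of slide 1. With the median brain signal as a covariate the cholesterol list's median was -0.07, and without control AL replicates 1 and 2 it was -0.06. Tm7sf2, a sterol reductase, separated all 8 arrays (-0.40 ± 0.13), the only 1 of the 23 members to do so (2.12% lower over all genes).

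**Figure D4:**
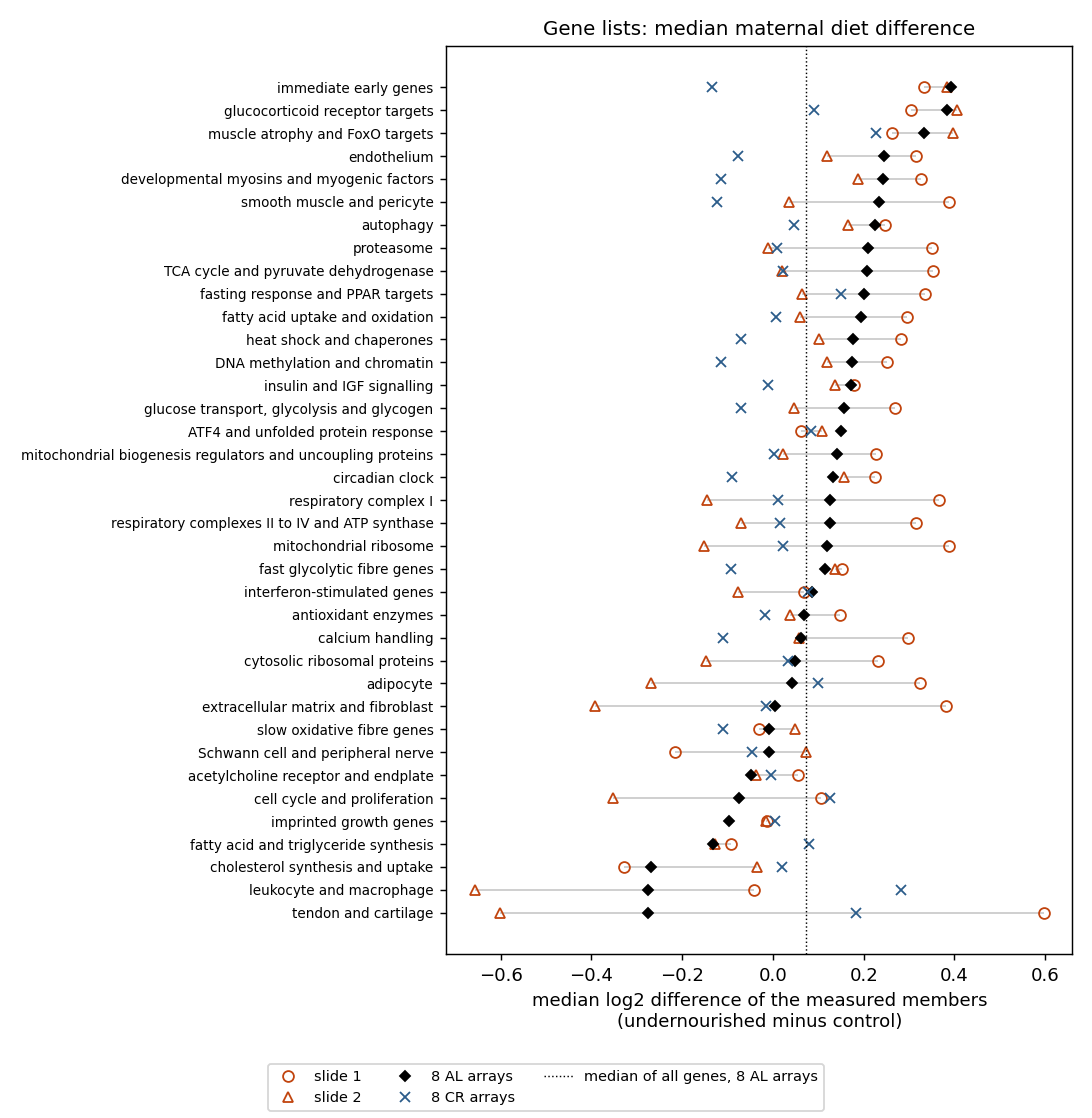
Median log2 difference of the measured members of 37 pathway and cell type lists over the 8 AL arrays (diamonds), on slide 1 (circles), on slide 2 (triangles) and between the CR groups (crosses). Immediate early genes (0.39), glucocorticoid targets (0.38) and atrophy genes (0.33) lie highest and similarly on both slides, while complex I lies at 0.37 on slide 1 and -0.15 on slide 2.

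Cell types within muscle differed in several ways. Endothelial genes had a median of 0.24, with 5 of 21 higher on both slides and 0 lower (9.27% and 7.98% over all genes). Tek, the angiopoietin receptor, differed by 0.65 ± 0.18, and Nos3, endothelial nitric oxide synthase and chosen here after its values were seen, by 0.46 ± 0.14. Both separated all 8 arrays on the higher side, the only 2 of the 21 to do so (3.32% over all genes). With the median brain signal as a covariate the endothelial median was 0.01 and Tek differed by 0.44. Leukocyte and macrophage genes had a median of -0.28, with 18 of 23 lower, 4 of them on both slides (7.98% over all genes), and the difference lay on slide 2 (-0.66, against -0.04 on slide 1). Tyrobp, a signalling adaptor of macrophages and microglia, stood at -1.01, -1.05, -2.01 and -1.92 in undernourished AL and at 0.29, -0.51, -0.22 and -1.17 in control AL (-1.09 ± 0.35). With the brain covariate Tyrobp differed by -0.54 and the leukocyte median was -0.40. Schwann cell genes had a median of -0.01, although 6 of 17, among them that of the myelin protein Mbp, which brain also makes (named here after its values were seen), were called lower on slide 1 (limma, adjusted p = 0.0112 for Mbp, with 7.14% of all genes called lower there). Tendon and cartilage genes were at 0.60 on slide 1 and -0.60 on slide 2, and extracellular matrix genes at 0.38 and -0.39.

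Imprinted and proliferation genes were of interest because they act on fetal growth. Igf2, the fetal growth factor, stood at 1.49 to 1.80 in undernourished AL and at 1.39 to 2.10 in control AL, with an interval of -0.57 to 0.20. Of 19 imprinted growth genes 9 were higher and 10 lower. Of these, 1 separated the groups on the higher side and 2 on the lower (3.32% and 2.12% over all genes). On both slides 1 was higher and 3 lower (9.27% and 7.98% over all genes). Gnas, which encodes the stimulatory G protein, separated the groups at 3.81 to 4.39 in undernourished AL and 3.06 to 3.64 in control AL (0.68 ± 0.19). Of 21 proliferation genes, Mcm5, part of the replicative helicase, separated them in the other direction at -3.53 to -3.28 in undernourished AL and -2.98 to -2.73 in control AL (-0.52 ± 0.12). Plk1, a mitotic kinase, and Ccne1, cyclin E1, did so too (-0.51 and -0.43, both chosen here after their values were seen). Over all genes 2.12% separated the groups in that direction. The proliferation list as a whole had 9 members higher and 12 lower, with a median of -0.07. Its median was 0.11 on slide 1 and -0.35 on slide 2. Under normexp background correction Mcm5 differed by -0.14. Megf10, a receptor of muscle satellite cells, differed by -0.77 ± 0.25, at -3.31 to -2.97 in undernourished AL and -2.82 to -1.76 in control AL. With the median brain signal as a covariate Megf10 differed by -0.27, and without control AL replicates 1 and 2 by -0.31. Slc7a11, a cystine transporter of the ATF4 response that brain also expresses, was not well above background on any undernourished array and at least 4.72-fold lower in undernourished AL, at -4.91 to -1.31 in control AL. That bound holds for the main fit, where the difference was -2.92. With the same covariate Slc7a11 differed by -1.08, without control AL replicates 1 and 2 by -1.11, and under normexp background correction by -0.67.

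Of 32 genes often studied after a poor fetal diet 31 were measured, all but the imprinted RNA H19. Of these 0 separated the groups, where 3.32% of all genes were higher and 2.12% lower. For a set of this size 0 lies near those shares. On both slides 6 were higher and 0 lower in undernourished AL (9.27% and 7.98% over all genes). At an unadjusted p under 0.05 there were 2, Fbxo32 and Pdk4, and for 22 the interval lay within 1 log2 unit of 0.

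**Figure D5:**
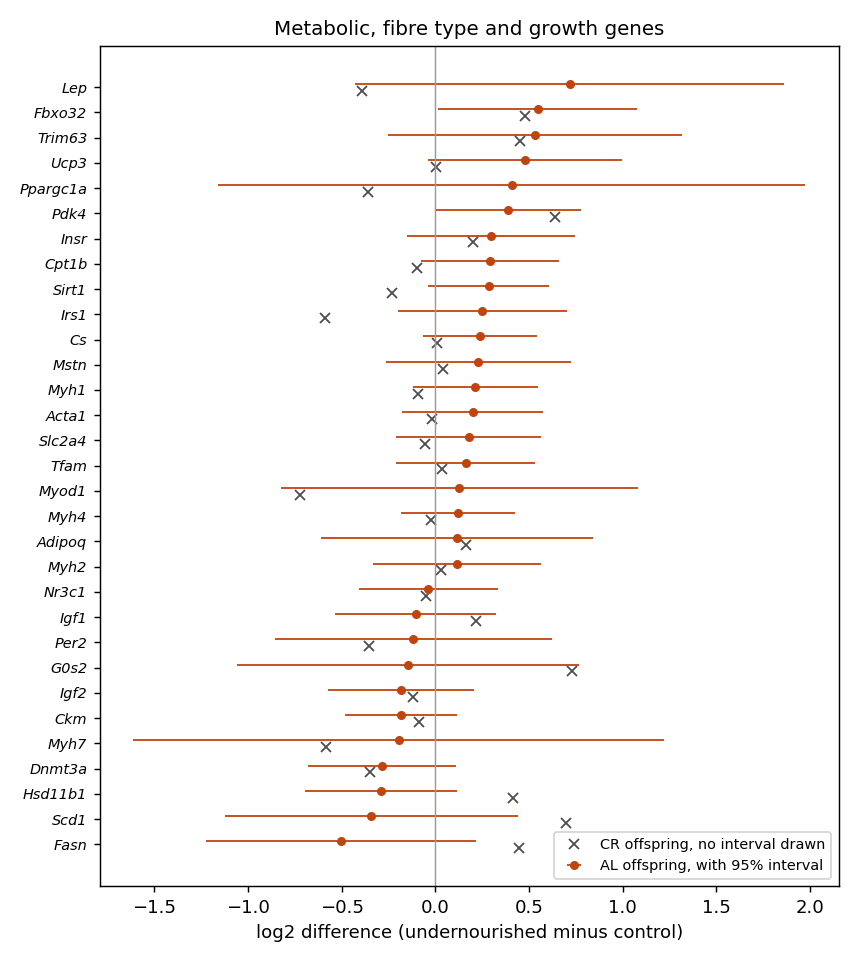
Log2 difference of 31 metabolic, fibre type and growth genes between undernourished AL and control AL with its 95% interval (filled points), beside the difference between undernourished CR and control CR (crosses). Only the intervals of Fbxo32 (0.55) and Pdk4 (0.39) lie above 0, and that of Ppargc1a runs from -1.16 to 1.97.

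The same maternal contrast in CR offspring shares no array with the AL contrast. Over the 21995 genes measurable in both, limma called 0 genes between undernourished CR and control CR (671 at an unadjusted p under 0.05). No gene was called in the test of its AL difference against its CR difference (limma, 0 called, 0%, with 2222 at an unadjusted p under 0.05 and a smallest adjusted p of 0.477). With slide as a block 7 genes were called in that test (smallest adjusted p 0.0368), and without control AL replicate 4 there were 66. Across genes the 2 differences had a Pearson correlation of 0.02. The leading genes were chosen on the AL arrays, and in CR offspring 7 of the 10 higher genes and 4 of the 10 lower genes had the same sign. Their CR differences ranged from -0.25 to 0.50 and from -0.51 to 0.43. Ptger4 differed by 0.50 between the CR groups, Gulo by 0.40 and Pitx1 by 0.29, and Gcnt1 by -0.51. Fbxo32 differed by 0.48 ± 0.54 and Trim63 by 0.45 ± 0.44 between the CR groups, with errors about as large as the differences, and the atrophy list had a CR median of 0.23. Immediate early genes had a CR median of -0.13.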

How the data were processed

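Total RNA was isolated with Trizol, DNase treated and labelled from 200 ng with Cy3 for 1-colour Agilent mouse arrays, per the labels' protocols. The authors deposited 1 scanner file per array, made with Agilent Feature Extraction 10.5.1.1 per the submitters' processing notes and the file headers. The deposited intensity, the processed signal, was background-subtracted and detrended within each array and not normalized between arrays, per the file headers. The deposited files also hold flags of 0 or 1 for each spot, such as well above background. The authors' deposited table of log2 values gives each probe a median of 0 over the 16 arrays. Its differences followed the scanner values with a median slope of 0.632 and correlation of 0.922 over 28 pairs of AL arrays, so its direction and centring are known, while how it was normalized is not given in the sources used. Its column medians lay between -0.101 and -0.0041 on the AL arrays.

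Controls and flagged outliers (64 to 100 spots per AL array) were left out. Values are log2 signal minus the 75th percentile of unflagged spots. The 28694 probes detected well above background on 4 or more of the 8 AL arrays were kept, and a gene took its probe with the highest mean over those arrays. Symbols came from RefSeq accessions matched to GRCm38.p6, with 24844 of 41174 probes matched and 16330 keeping the file's name. Of 22079 genes tested 13991 had a symbol.

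Groups were compared with limma 3.58.1 (lmFit and eBayes) in R 4.3.3 on the 8 AL arrays, with Benjamini-Hochberg adjustment over all genes, two-sided, called at an adjusted p under 0.05. Values after ± are standard errors of a log2 difference (n = 4 arrays a group). Within-slide differences came from 1 fit with a mean per diet and slide, and the AL against CR test from all 16 arrays. The script was tested on simulated data. Alternatives were other background corrections, scalings, filters, probe rules, blocks, covariates for other tissues and arrays left out. The column of mean signal is not used here, so normexp ran on the median signal and background with an offset of 50. The deviations of arrays with the same replicate number correlated between the groups at 0.46, 0.16, 0.12 and 0.52, and the numbers lie on shared slides. Arrays of different numbers on the same slide correlated between the groups at 0.30, 0.18, 0.32 and -0.05. Replicate numbers were taken as pairs only in the replicate block, and the main fit had no block.

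The arrays compared, the 46 gene lists and the 32 studied genes were chosen with earlier results of these data known, so lists are given as counts and medians with no test. Named genes are, in each direction, the 10 with the smallest p among genes whose arrays do not overlap, the 8 with the smallest p with slide as a block among genes of no other-tissue list that do not overlap on either slide, the member of each list with the smallest p, the most abundant brain, skin and liver genes, and the 32 studied genes. Some genes that this rule names are not reported here. No set of sequences bears on these results, and the number of arrays limits the precision.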

Additional observations from a re-analysis of the deposited data

Results flagged for a closer look

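Over the named genes and list medians, 306 groups of 4 arrays were examined, and 7 (2.29%) had a single array far from the other 3, where chance gives about 1 in 20. Mia, a secreted cartilage protein, stood at -4.21 in undernourished AL replicate 2, against -4.54 to -4.50 on the other arrays of its group. Hspb8, a small heat shock protein, stood at 5.47 in undernourished AL replicate 4, against 4.70 to 4.82 on the others. The median of the skin list was -2.25 in undernourished AL replicate 3, against -3.49 to -3.39 on the others, the same array that had raised liver markers.

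In control AL, Myh7, the slow myosin, stood at 5.89 in replicate 2 and between 7.52 and 7.55 on the others. Gnas stood at 3.06 in replicate 1 against 3.62 to 3.64 on the others, Tek at -0.12 in replicate 3 against -0.69 to -0.62, and Elovl1, a fatty acid elongase, at 0.88 in replicate 4 against 1.0 to 1.02.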

How the results depend on the processing

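The count of 0 genes called between undernourished AL and control AL changed with slide as a block (7) and with all 16 arrays (2), and ranged from 0 to 44 when each array was left out, 44 being without control AL replicate 4. The replicate block, which pairs arrays of one number and slide, called 0 genes (4511 at an unadjusted p under 0.05, smallest adjusted p 0.0678) and changed no other call. Normexp, quantile normalization, the other percentile, the authors' table, both filters, the mean of probes, array weights and the tissue covariates gave 0. With the brain index as a covariate 883 genes had an unadjusted p under 0.05, and without control AL replicates 1 and 2 there were 684. The 1199 genes whose arrays do not overlap became 2290 without those 2 arrays and 10869 without the 4 AL arrays that had more skin or liver RNA, which leaves 1 control array, both by construction with fewer arrays, and 1299 to 4094 with each array left out (2945 without undernourished AL replicate 1, 2712 without control AL replicate 3, 4094 without control AL replicate 4). Within slide 2 the calls became 3 under normexp and 2 under quantile normalization. Under normexp 1186 genes differed between slides in their diet difference, and 115 were called between slides, against 0 and 1296. With no filter these were 63 and 0. The AL against CR test called 7 genes with slide as a block, 1 with no filter and 0 to 66 with each array left out (66 without control AL replicate 4, 1 without undernourished CR replicate 4). The cause of these moves was not tested. Of the 31 genes that lead with or without the slide block, Spred2 reversed under normexp (0.038, adjusted p = 0.913), and the others kept their sign in every setting run. Gjb5 and Cdsn passed without control AL replicate 4 (adjusted p = 0.0311 and 0.0245). Of 1971 values of the other named genes 104 moved beyond the spread between arrays, and of 1196 list medians 75 did. Dim probes limit what can be read on the lower side, since 5 of the 10 leading lower genes were not well above background on 2 or more undernourished arrays.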

Other observations

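The other-tissue lists beyond brain and skin had few measured members. Blood genes had a median of 0.04, liver genes 0.14, heart genes 0.29 and pancreas genes 0.18, with 7, 8, 9 and 7 measured members. Kidney genes had a median of -0.63 over 2 members and intestine genes 0.21 over 3. Among the abundant brain markers, Camk2b, a calcium-dependent kinase that muscle also makes, stood at 3.58 to 3.80 in undernourished AL and 3.58 to 3.71 in control AL. In skin, Perp, a desmosome protein, stood at -0.87 to -0.27 in undernourished AL against 1.73, 2.75, 1.63 and -0.72 in control AL, so that control AL replicate 4 lay within the undernourished range. Sbsn, a protein of the upper epidermis, stood at -0.66 to -0.44 in undernourished AL and 1.96, 2.88, 1.95 and -1.07 in control AL, so that control AL replicate 4 lay below the undernourished range.

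Slow fibre genes varied between pools more than between the diets. Their median was 4.62, 3.0, 5.18 and 5.27 in undernourished AL and 5.06, 3.50, 4.95 and 5.40 in control AL, lowest in replicate 2 of each group.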
